A study of Mus musculus with 8 samples.

Results

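Circadian clock genes were measured by RNA-Seq in dental pulp (DP) from the molars of mice with and without deletion of *Tgfbr2*, the type II receptor of transforming growth factor beta. The 10 genes were chosen by name, as core parts and direct outputs of the clock, and all 10 were among the 12148 genes with values. They are *Arntl*, *Clock*, *Per1*, *Per2*, *Per3*, *Cry1*, *Nr1d1*, *Nr1d2*, *Dbp* and *Tef*. The question was whether their levels differed between the genotypes, since these genes follow the time of day at which a tissue is collected. No time of collection or light schedule is given in the labels or the methods for these libraries, so genotype and time of collection cannot be told apart here.

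The data are 8 libraries from C57BL/6J mice at postnatal day 7 (P7). Osterix-Cre controls and Tgfbr2cko mutants (Osterix-Cre:Tgfbr2f/f) gave 4 libraries each. Both groups carry Cre recombinase driven by the Osterix promoter, which is active in dental mesenchyme, and only the mutants also carry *Tgfbr2* with both copies flanked by loxP sites. The left and right first molar pulps of a mouse were combined, and RNA was amplified from a low input. Each library is called by the number at the end of its title, with Osterix-Cre at 49 to 52 and Tgfbr2cko at 53 to 56. A further number in the titles repeats within each group (4, 4, 2 and 5 in Osterix-Cre DP and 3, 2, 2 and 3 in Tgfbr2cko DP), so p-values measure only the spread between these libraries.

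The clock of a cell is a feedback loop of transcription. The proteins of *Arntl* (BMAL1) and *Clock* form a pair that switches on the *Per* and *Cry* genes, whose proteins accumulate and shut the pair off again about once a day. The same pair switches on *Nr1d1* and *Nr1d2*, which encode repressors of *Arntl*, and *Dbp* and *Tef*, which encode transcription factors that pass the rhythm on to other genes. In rhythmic tissues, *Arntl* therefore peaks at an opposite phase to *Dbp*, *Nr1d1* and *Per3*, and clocks of this kind have been described in ameloblasts and odontoblasts.

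The DNA letters through which these genes regulate each other were searched for in the 300 bases around each RefSeq start (250 before and 50 after it, GRCm38.p6), on both strands. Windows were found for 9 of the 10 genes, 14 windows in all, and not for *Per2*. The sequences below are shown because they hold such letters, in capitals, which are the E-box CACGTG of the ARNTL and CLOCK pair in *Cry1*, *Per1* and *Tef*, the D-box TTATGTAA of DBP and TEF in *Per3*, and the core TAGGTCA bound by the NR1D receptors and their ROR counterparts in *Arntl*. Each is written 5′ to 3′ on the strand of its gene.
*Cry1*, upstream of the gene, chr10:85185079-85185144, minus strand: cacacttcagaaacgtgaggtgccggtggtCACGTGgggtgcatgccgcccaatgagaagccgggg
*Per1*, in an intron, before an internal start, chr11:69098753-69098818, plus strand: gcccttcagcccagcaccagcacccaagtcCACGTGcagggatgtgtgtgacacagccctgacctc
*Tef*, in an exon, chr15:81802536-81802561, plus strand: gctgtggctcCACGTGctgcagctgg
*Tef*, in an intron, before an internal start, chr15:81811246-81811311, plus strand: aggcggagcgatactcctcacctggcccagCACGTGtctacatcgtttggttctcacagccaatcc
*Per3*, upstream of the gene, chr4:151044786-151044900, minus strand: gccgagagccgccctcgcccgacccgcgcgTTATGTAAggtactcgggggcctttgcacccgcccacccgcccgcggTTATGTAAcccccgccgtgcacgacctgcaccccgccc
*Arntl*, in an exon, chr7:113207531-113207557, plus strand: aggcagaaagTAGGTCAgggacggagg

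The E-box CACGTG is common, and 7.15% of all 32851 mouse windows held it. It stood in 4 of the 14 windows of the clock genes. The D-box TTATGTAA stood in 0.938% of all windows, and *Per3* held it at 2 places, beginning at positions -205 and -158 from the start. TAGGTCA stood in 2.61% of all windows and in 1 window of *Arntl*, 31 bases past the start. A D-box of the form TTACGTAA (0.119% of all windows) and the cAMP response element TGACGTCA (1.79%) stood in 0 of the 14. The windows of *Clock*, *Nr1d1*, *Nr1d2* and *Dbp* held none of these 5 motifs. These matches describe letters in the windows only, and binding was not measured.

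Between 8682872 and 13539670 reads per library were counted on the 12148 genes, so 1 read is worth 0.0739 to 0.115 CPM (counts scaled to a common library total). The deleted gene, *Tgfbr2*, had log2 CPM values of 7.16, 7.62, 7.64 and 7.52 in Osterix-Cre DP and 7.02, 7.00, 7.16 and 7.61 in Tgfbr2cko DP, so the libraries labelled Tgfbr2cko 55 and 56 lay inside the control range and did not by this gene differ from a control. Its log2 fold change was -0.29 (standard error 0.17, limma p of 0.119). Every library is named here by its label. The position of the floxed exon was not used, so reads outside it could remain in a deleted cell. Markers of odontoblasts (5 of 5) and of pulp mesenchyme (5 of 5) were present in every library, while all 4 skeletal muscle markers were not in the table. All 7 enamel organ markers were also present, at 0.397% to 2.95% of the reads of 7 libraries and 19.3% of those of the library labelled Tgfbr2cko 56, although the pulp had been separated from the enamel organ.

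Of the 10 clock genes, 1 was altered between the genotypes by the study's thresholds, which are an unadjusted p under 0.05 and a difference of at least 1.5-fold. This was *Nr1d1*, which was lower in the mutants. By the same thresholds 5.77% of all genes were altered, and 3.65% were lower, 2.12% higher. None of the 10 had an adjusted p under 0.05 (limma with an intensity trend, two-sided, Benjamini-Hochberg adjustment over all genes), where 0.947% of all genes did. At an unadjusted p under 0.05 the count was also 1, against 8.38% of all genes. In every clock gene the libraries of the genotypes overlapped. Of all genes, 5.27% had no overlap, so a count of 0 among 10 is near the background.

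**Figure D1:**
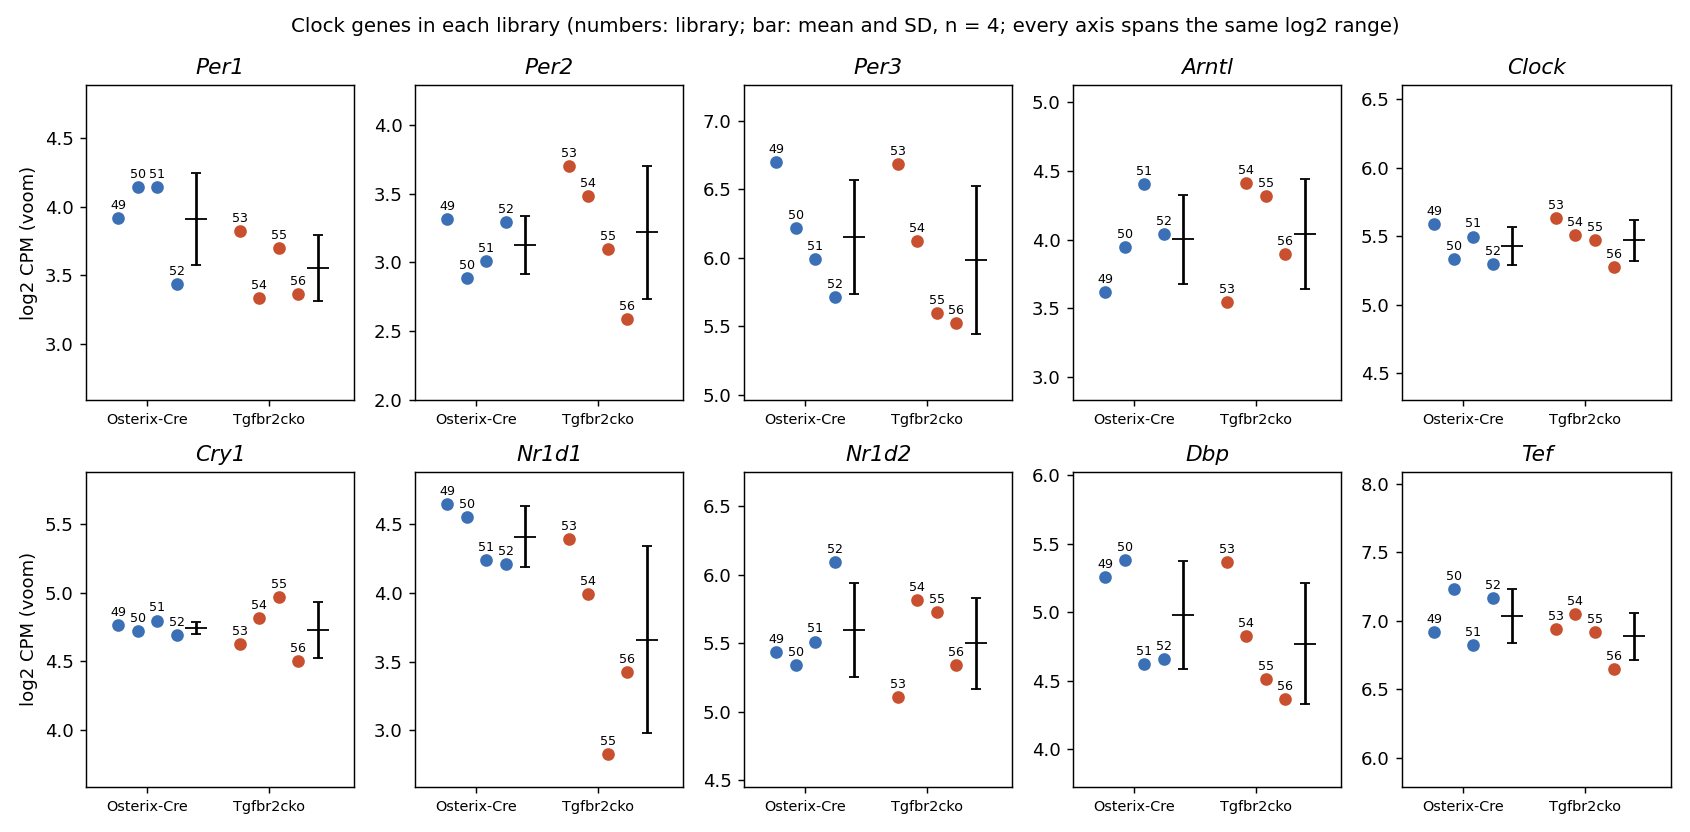
Log2 CPM (vertical axis) of each clock gene in the 4 Osterix-Cre (blue) and 4 Tgfbr2cko (red) libraries, numbered by library, with the mean and SD of each genotype as black bars (n = 4). The genotypes overlap in all 10 genes, and *Nr1d1* has the widest spread, from 2.82 in library 55 to 4.65 in library 49.

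*Arntl* (ENSMUSG00000055116.8, chromosome 7 from 113207465 to 113314126) encodes BMAL1, the activator without which the loop does not run. Its log2 CPM was 3.62, 3.94, 4.40 and 4.04 in Osterix-Cre libraries 49 to 52. In Tgfbr2cko libraries 53 to 56 it was 3.54, 4.41, 4.32 and 3.90. The lowest 2 libraries were 49 and 53, 1 of each genotype, and the highest were 54 and 51, again 1 of each. Between the genotypes the log2 fold change was 0.04 (standard error 0.24, 95% interval -0.47 to 0.56, limma p of 0.867). The interval allows a level in the mutants between 0.72 and 1.47 times that of the controls.

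*Clock* (ENSMUSG00000029238.11, chromosome 5 from 76209868 to 76304792) encodes the partner of BMAL1 and cycles little in many tissues. It was also the steadiest of the 10 genes here, since its 8 values spanned only 1.28-fold. The controls had log2 CPM values of 5.59, 5.33, 5.50 and 5.29 and the mutants 5.63, 5.50, 5.47 and 5.27. Both genotypes covered nearly the same range, with a log2 fold change of 0.04 (standard error 0.15, 95% interval -0.28 to 0.36, limma p of 0.778).

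Among the repressors, the 3 *Per* genes had differences of unlike sign, and none passed the test. *Per1* (ENSMUSG00000020893.17, chromosome 11 from 69095217 to 69109960) answers the clock and also glucocorticoids and cAMP signals. Its log2 CPM was 3.92, 4.14, 4.15 and 3.43 in Osterix-Cre DP and 3.82, 3.33, 3.70 and 3.36 in Tgfbr2cko DP. Control library 52 lay among the mutants, and the other 3 controls lay above all of them. The mean was 3.91 ± 0.34 in Osterix-Cre DP and 3.55 ± 0.24 in Tgfbr2cko DP (n = 4 each, ± SD). Its log2 fold change of -0.36 (standard error 0.22, 95% interval -0.84 to 0.12) had a limma p of 0.130 before adjustment and of 0.806 after it.

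*Per2* (ENSMUSG00000055866.9, chromosome 1 from 91415982 to 91459324), a core repressor, had the lowest level of the 10 genes per kilobase of exon, with 71 to 137 reads per library. Its log2 CPM was 3.31, 2.89, 3.01 and 3.30 in the controls. In the mutants it was 3.70, 3.49, 3.10 and 2.59, so that the highest and the lowest library of all 8 were both mutants. On average the genotypes were close, with a log2 fold change of 0.09 (standard error 0.26, 95% interval -0.47 to 0.66, limma p of 0.729).

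*Per3* (ENSMUSG00000028957.12, chromosome 4 from 151003652 to 151044665) is the family member that is dispensable for the rhythm but oscillates strongly in many tissues. It had log2 CPM values of 6.70, 6.22, 5.99 and 5.71 in Osterix-Cre DP and 6.68, 6.13, 5.60 and 5.53 in Tgfbr2cko DP. Each genotype held 1 library near 6.7 and spread downwards from there, and the 8 libraries spanned 2.25-fold. The spread within the genotypes was larger than that of 85.6% of all genes. It exceeded the difference between them, a log2 fold change of -0.17 (standard error 0.26, 95% interval -0.73 to 0.39, limma p of 0.527).

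*Cry1* (ENSMUSG00000020038.10, chromosome 10 from 85131700 to 85185064), the strongest repressor of the ARNTL and CLOCK pair, was among the steadiest genes. Its log2 CPM was 4.76, 4.72, 4.80 and 4.69 in Osterix-Cre DP and 4.63, 4.82, 4.97 and 4.50 in Tgfbr2cko DP. The controls lay inside the range of the mutants, and the log2 fold change was -0.02 (standard error 0.16, 95% interval -0.36 to 0.33, limma p of 0.926), and its spread within the genotypes was larger than that of only 7.89% of all genes.

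*Nr1d1* (ENSMUSG00000020889.11, chromosome 11 from 98767932 to 98775333) encodes REV-ERB alpha, the nuclear receptor that represses *Arntl*. Its log2 CPM was 4.65, 4.55, 4.24 and 4.21 in the controls, from 179 to 245 reads. Mutant libraries 53 to 56 had 4.39, 3.99, 2.82 and 3.43, from 186, 195, 61 and 145 reads. Mutant libraries 54, 55 and 56 lay below every control, and library 53 lay between the controls. The controls averaged 4.41 ± 0.22 and the mutants 3.66 ± 0.68 (SD, n = 4 each), so the mutants had 0.593 of the control level. This log2 fold change of -0.75 (standard error 0.29, 95% interval -1.38 to -0.12) had a limma p of 0.0230, or 0.413 after adjustment. The two-sided exact permutation p was 0.0857, where the 70 arrangements of the libraries cannot give less than 0.0286.

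The difference in *Nr1d1* leaned on single libraries. Without mutant library 55 the log2 fold change was -0.47 (limma p of 0.0832), without control library 49 it was -0.67 (p of 0.0625) and without control library 50 it was -0.71 (p of 0.0537). The 2 mutant libraries with the lowest values were also those with the largest share of enamel transcripts among the mutants, 2.95% in library 55 and 19.3% in library 56, against 0.490% and 0.412% in libraries 53 and 54. Control library 49 had the highest *Nr1d1* value of all and an enamel share of 2.33%. The summed level of the 4 epithelial markers was 881 CPM in library 55 and 2720 CPM in library 56, and 228 to 357 CPM in the other 6 libraries. Summed odontoblast markers were at 45837 to 98419 CPM in Osterix-Cre DP and at 32217, 41619, 60925 and 28046 CPM in mutant libraries 53 to 56, so that 3 of the 4 mutants lay below every control. Blood markers summed to 2242 CPM in library 56 and to 537 to 1296 CPM in the other 7. The 4 macrophage markers summed to 225 CPM in library 56 and to 387 to 527 CPM in the other 7, and the 4 endothelial markers to 150.4 CPM against 157 to 248 CPM. Without library 56 the log2 fold change was -0.68 (p of 0.0478), and with the enamel genes left out of the library totals it was also -0.68 (p of 0.0356). The further part of these markers in the result was not tested. In bulk tissue, fewer cells of a type and less RNA per cell cannot be told apart.

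Exons of *Nr1d1* overlap those of *Thra*, the gene of thyroid hormone receptor alpha, which lies on the opposite strand. The overlap takes 263 bases, or 8.55% of the exon length of *Nr1d1*, and the strand setting of the counting is not given in the sources used here. *Thra* had log2 CPM values of 6.97, 7.22, 6.98 and 6.78 in Osterix-Cre DP and 7.27, 7.18, 6.89 and 6.57 in Tgfbr2cko DP. Its log2 fold change was -0.01 (standard error 0.17, limma p of 0.950), and its genotypes overlapped.

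*Nr1d2* (ENSMUSG00000021775.10, chromosome 14 from 18204054 to 18239127) encodes REV-ERB beta, which acts beside REV-ERB alpha. It had log2 CPM values of 5.44, 5.34, 5.51 and 6.10 in Osterix-Cre DP and 5.11, 5.82, 5.73 and 5.34 in Tgfbr2cko DP. Control library 52 was the highest and mutant library 53 the lowest, and the other 6 libraries of both genotypes were interleaved, and the log2 fold change was -0.10 (standard error 0.21, 95% interval -0.54 to 0.35, limma p of 0.644). Libraries 55 and 56, lowest for *Nr1d1*, were thus not the lowest for its paralog.

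The outputs *Dbp* and *Tef* encode related transcription factors of the PAR bZIP family, which bind D-boxes. *Dbp* (ENSMUSG00000059824.12, chromosome 7 from 45705088 to 45710203) had log2 CPM values of 5.26, 5.38, 4.62 and 4.66 in Osterix-Cre DP and 5.36, 4.83, 4.51 and 4.37 in Tgfbr2cko DP. Libraries 49, 50 and 53 stood above 5.2 and the other 5 below 4.9, so the gap ran through both genotypes. The log2 fold change was -0.21 (standard error 0.25, 95% interval -0.74 to 0.32, limma p of 0.407). Exons of *Dbp* share 18.0% of their length with *Sphk2*, on the opposite strand. *Sphk2* varied less between the libraries, from 4.78 to 5.17, with a log2 fold change of -0.03 (limma p of 0.863).

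*Tef* (ENSMUSG00000022389.14, chromosome 15 from 81802421 to 81826863) had the highest level of the 10 genes per kilobase of exon, with 1049 to 1625 reads per library. By library, its log2 CPM was 6.92, 7.23, 6.82 and 7.16 in Osterix-Cre DP and 6.94, 7.05, 6.92 and 6.65 in Tgfbr2cko DP. The 8 values spanned 0.59 on the log2 scale, and library 56 was the lowest. Between the genotypes *Tef* had a log2 fold change of -0.15 (standard error 0.15, 95% interval -0.47 to 0.18, limma p of 0.344).

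**Figure D2:**
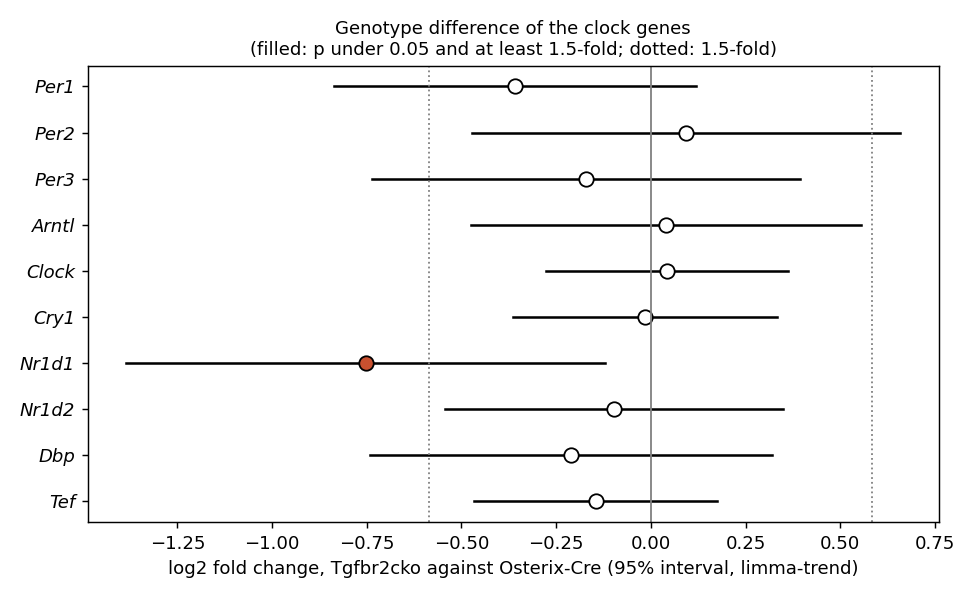
Log2 fold change of Tgfbr2cko against Osterix-Cre (horizontal axis) for each clock gene, with the 95% interval from limma as a line and 1.5-fold as dotted lines. Only *Nr1d1*, at -0.75, is filled as altered, and the intervals of the other 9 genes include 0.

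Across the 10 genes, 7 had a lower mean in the mutants and 3 a higher one, beside 51.2% lower among all genes. The median log2 fold change of the 10 was -0.12, and that of all genes -0.01. This median moved with single libraries and with the scaling. It was -0.031 without library 56, -0.20 without library 54, -0.0039 with limma's library weights and -0.045 with library totals that left out the enamel genes. The median of all genes moved in the same direction in these 4 settings, to 0.070, -0.039, 0.020 and 0.072, so part of the shift was not particular to the clock genes. The activators *Arntl* and *Clock* lay at 0.04 each, and the outputs *Dbp* and *Tef* at -0.21 and -0.15. Of the repressors, the 3 *Per* genes ran from -0.36 to 0.09, and *Cry1*, *Nr1d1* and *Nr1d2* were at -0.02, -0.75 and -0.10. An order by class was not tested. The exact permutation p of the 9 genes other than *Nr1d1* ran from 0.114 for *Per1* to 0.971 for *Arntl*. For 4 of the 10 genes, *Per1*, *Per3*, *Nr1d1* and *Dbp*, the interval included a level 1.5-fold lower in the mutants, and for *Per2* it included one 1.5-fold higher. With 4 libraries a genotype, the test thus leaves a difference of 1.5-fold possible in *Per1*, *Per2*, *Per3* and *Dbp*.

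Levels of different genes were compared per kilobase of exon length. In the controls the order was *Tef* at 16.7 CPM per kilobase, *Dbp* at 10.5, *Nr1d2* at 8.95, *Cry1* at 8.02, *Per3* at 7.41, *Nr1d1* at 6.92, *Clock* at 3.14, *Per1* at 2.67, *Arntl* at 2.13 and *Per2* at 1.49. Between neighbours in this order, the ranges of the 4 control libraries were apart at only 2 steps, from *Tef* to *Dbp* and from *Nr1d1* to *Clock*. The outputs and the nuclear receptors thus stood on average, with *Cry1* and *Per3*, above both activators. In the mutants *Nr1d1* was at 4.11 CPM per kilobase, still above *Clock* at 3.23 on average, but in 1 mutant library it was not.

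**Figure D3:**
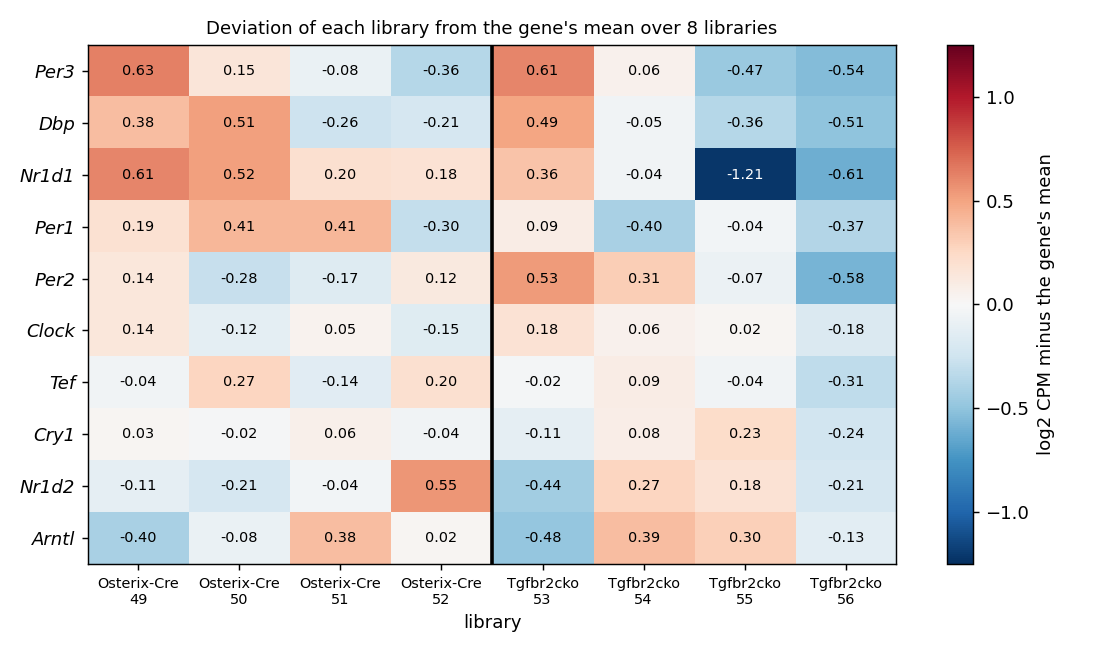
Deviation of each library (columns) from a gene's mean over the 8 libraries, in log2 CPM, for the 10 clock genes (rows), with the genotypes parted by a black line. Libraries 49 and 53 are red for *Per3*, *Dbp* and *Nr1d1* and blue for *Arntl*, and library 56 is below the mean in all 10 genes.

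Between libraries of a genotype, the median SD of the clock genes was 0.35 on the log2 scale, and that of all genes 0.28. The spread was uneven, from 0.14 for *Clock* and 0.15 for *Cry1* to 0.48 for *Per3* and 0.51 for *Nr1d1*. *Dbp* (0.42), *Per2* (0.38), *Arntl* (0.36), *Nr1d2* (0.34), *Per1* (0.29) and *Tef* (0.18) lay between them.

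Libraries 49 and 53 were alike in several of these genes, and library 50 in fewer. In library 49, *Per3* lay 0.63, *Nr1d1* 0.61 and *Dbp* 0.38 above the gene's mean, and *Arntl* was at -0.40. In library 53, which is a mutant, *Per3* lay 0.61, *Dbp* 0.49 and *Nr1d1* 0.36 above the mean, and *Arntl* was at -0.48. Control library 50 was also high for *Dbp* (0.51) and *Nr1d1* (0.52), but *Per3* lay only 0.15 above its mean and *Arntl* at -0.08.

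Libraries 55 and 56 stood at the other end for *Per3*, *Dbp* and *Nr1d1*, but only library 55 did so for *Arntl* too. In library 55, *Nr1d1* was at -1.21, *Per3* at -0.47 and *Dbp* at -0.36, and *Arntl* was at 0.30. In library 56 all 10 clock genes lay below their means, with *Arntl* at -0.13, and 6 of the 10 had their lowest value there. The median of all genes in that library was 4.81, against 4.92 to 5.08 in the other 7. With every library centred on its median, 8 of the 10 clock genes were below their means in library 56.

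The difference between *Dbp* and *Arntl* within a library does not depend on the library's total. *Dbp* minus *Arntl* was 1.64, 1.44, 0.21 and 0.62 on the log2 scale in Osterix-Cre libraries and 1.82, 0.41, 0.19 and 0.47 in Tgfbr2cko libraries. Libraries 49, 50 and 53 thus lay between 1.44 and 1.82, and the other 5 between 0.19 and 0.62. The high libraries included both genotypes, and so did the low ones. Libraries 49 and 50 share a title number, so they may not be independent.

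*Per3* minus *Arntl* was 3.08, 2.27, 1.58 and 1.67 in Osterix-Cre DP and 3.14, 1.71, 1.28 and 1.63 in Tgfbr2cko DP, highest in the same 3 libraries. *Nr1d1* minus *Arntl* was 1.03, 0.61, -0.17 and 0.17 in Osterix-Cre DP and 0.85, -0.42, -1.50 and -0.47 in Tgfbr2cko DP, and libraries 49, 50 and 53 were again the highest. *Nr1d2* minus *Arntl* did not follow this order, with its highest value of 2.05 in library 52 and its lowest of 1.11 in library 51. All these differences subtract the same *Arntl* values, which were lowest in libraries 49 and 53, so part of the shared order comes from *Arntl* itself. *Tef* minus *Arntl* was also highest in libraries 49, 50 and 53 (3.30, 3.29 and 3.39), although *Tef* itself was at -0.04 and -0.02 from its mean in libraries 49 and 53. *Per1* minus *Arntl* was highest there too (0.30, 0.20 and 0.28, with the other 5 at -1.08 to -0.26), whereas *Per2* minus *Arntl* was highest in library 53 (0.16) and library 49 (-0.31) and at -1.05 in library 50. The 3 mutants other than library 53 lay below all controls for *Nr1d1* minus *Arntl*, and among the controls for *Per3* minus *Arntl* except library 55.

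**Figure D4:**
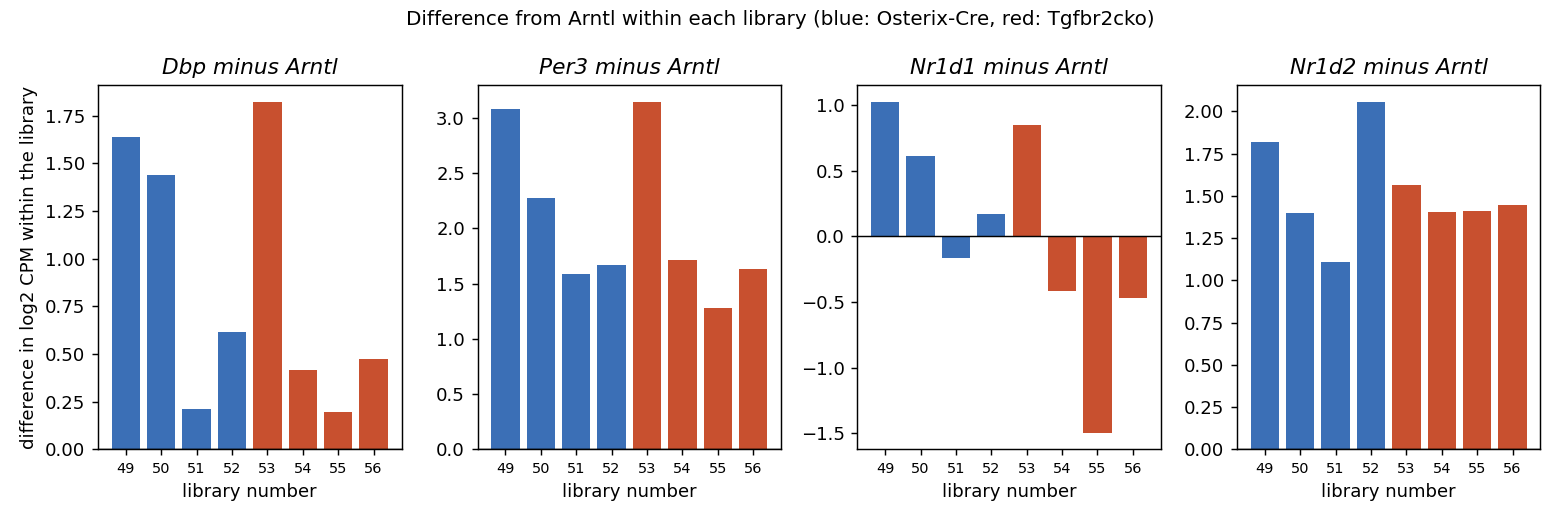
Log2 CPM of *Dbp*, *Per3*, *Nr1d1* and *Nr1d2* minus that of *Arntl* in the same library (vertical axes, bars from 0), for Osterix-Cre (blue, 49 to 52) and Tgfbr2cko (red, 53 to 56). For *Dbp*, *Per3* and *Nr1d1* the 3 highest bars are libraries 49, 50 and 53, which include both genotypes, *Nr1d2* does not follow that order, and all bars subtract the same *Arntl* values.

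Pairs of clock genes were correlated across the 8 libraries. Of 45 pairs, 29 had a positive Pearson's r, and 5 had an unadjusted p under 0.05 (two-sided exact permutation test over all 40320 pairings), but 0 had an adjusted p under 0.05. With every library centred on its median, 24 pairs were positive and 21 negative. The closest pair was *Per3* and *Dbp*, with r = 0.897 (exact permutation p of 0.00417, adjusted p of 0.188) and Spearman's rho = 0.881 (exact permutation p of 0.00724, adjusted p of 0.163). Without the 2 libraries farthest from the median of *Per3*, which were 49 and 53, r was 0.843. On deviations from the genotype mean, which hold no difference between the genotypes, r was 0.894.

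*Per3* and *Nr1d1* had r = 0.761 (exact permutation p of 0.0253, adjusted p of 0.378) and rho = 0.881 (exact permutation p of 0.00724, adjusted p of 0.163). *Nr1d1* and *Dbp* had r = 0.758 (exact permutation p of 0.0230, adjusted p of 0.378) and rho = 0.810 (exact permutation p of 0.0218, adjusted p of 0.245). Without the 2 farthest libraries r was 0.756 and 0.751, with exact permutation p-values of 0.0819 and 0.107. On deviations from the genotype mean, r was 0.847 for *Per3* and *Nr1d1* and 0.791 for *Nr1d1* and *Dbp*.

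*Clock* was correlated with *Per3* at r = 0.750 (exact permutation p of 0.0393, rho = 0.786 with p of 0.0279) and with *Per2* at r = 0.726 (exact permutation p of 0.0420, rho = 0.810 with p of 0.0218). Adjusted, the p of r was 0.378 for both pairs, and that of rho was 0.251 and 0.245. Both relations rested on the 2 farthest libraries, since r without them was 0.353 and 0.339. *Arntl* was negatively correlated with *Dbp* (r = -0.619, exact permutation p of 0.111, rho = -0.357 with p of 0.389), which did not pass the threshold before adjustment. With every library centred on its median it did, at r = -0.851 (exact permutation p of 0.0131, adjusted p of 0.214), as did *Per3* and *Arntl* at r = -0.824 (exact permutation p of 0.0143, adjusted p of 0.214). The rho of both pairs was then -0.595 (exact permutation p of 0.132). Without libraries 49 and 53 these r values were -0.742 and -0.304, with exact permutation p-values of 0.0889 and 0.568. Libraries that share a title number, such as 49 and 50, may not be independent.

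The genes whose pattern was most like that of *Dbp* among all 12148, by Pearson's r over the 8 libraries on deviations from the genotype mean, were *Lxn* (0.994), *Ndufa8* (0.993), *Tpgs2* (0.991), *Foxo1* (0.989) and *Peg12* (0.987). *Per3* ranked 683 in that order and *Nr1d1* 1895. Many genes outside the clock thus followed *Dbp* over these libraries more closely than its clock partners did. Most like *Arntl* were *Btd* (0.979), *Dnajc3* (0.978), *Por* (0.976), *Tapbpl* (0.972) and *Gramd4* (0.961). These values describe 8 points that share their library totals.

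Other regulators of the clock were listed by function. Of 21 listed, 17 were in the table, and 0 were altered. At an unadjusted p under 0.05 the limma count was also 0. Since these rules call 5.77% and 8.38% of all genes, a count of 0 among 17 is near the background. The 3 with the smallest p were *Rora*, an activator of *Arntl*, with a log2 fold change of 0.29 (standard error 0.15, limma p of 0.0735), *Btrc*, part of a ubiquitin ligase that marks PER proteins for decay, at -0.25 (p of 0.137), and *Sirt1*, a deacetylase, at 0.34 (p of 0.215). The median of the 17 was -0.03. *Cry2*, the paralog of *Cry1*, had log2 CPM values of 5.43 to 5.58 in Osterix-Cre DP and 5.28 to 5.70 in Tgfbr2cko DP and a log2 fold change of -0.03 (p of 0.840).

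Of 19 listed clock outputs, 17 were in the table, and 3 were altered, 1 higher and 2 lower, beside 5.77% of all genes. This list too was chosen with earlier results of these data known, so the count does not test it. *Tsku*, which encodes the secreted protein tsukushi, was 5.74, 6.00, 6.10 and 6.31 in Osterix-Cre DP and 6.80, 6.70, 6.50 and 6.75 in Tgfbr2cko DP. Every mutant was above every control, with a log2 fold change of 0.65 (standard error 0.15, limma p of 0.000936, adjusted p of 0.0724). *Dtx4*, a ubiquitin ligase of the Notch pathway, was 5.16, 5.70, 5.66 and 5.57 in Osterix-Cre DP and 4.32, 4.95, 5.14 and 4.36 in Tgfbr2cko DP. Every mutant was lower, with a log2 fold change of -0.83 (standard error 0.21, limma p of 0.00179, adjusted p of 0.108). *Cys1*, which encodes the ciliary protein cystin, was also lower in every mutant, with a log2 fold change of -0.71 (standard error 0.21, limma p of 0.00496, adjusted p of 0.185). These 3 genes are named for rhythms in other tissues, and each has roles outside the clock. *Dbp* and *Tef*, which are outputs too, are described above. The median of the 17 was -0.02.

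Glucocorticoids set the clocks of peripheral tissues, and their targets were listed beside the clock. Of 13 listed, 12 were in the table, and 0 were altered (limma count at an unadjusted p under 0.05, 0), which is near the 5.77% and 8.38% of all genes called by these rules. The 3 with the smallest p were *Cebpd* at 0.44 (standard error 0.21, limma p of 0.0617), *Mt1* at 0.33 (p of 0.107) and *Per1*, above. The median of the 12 was -0.07.

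Immediate early genes respond to stimuli within minutes, and 8 of 10 listed were in the table. Of these, 2 were altered, both lower, beside 3.65% of all genes called lower by that rule. The list was chosen with earlier results of these data known, so this count is not a test of it. *Arc*, a neuronal activity gene, was 3.92, 3.50, 5.0 and 4.47 in Osterix-Cre DP and 1.73, 3.23, 2.57 and 1.54 in Tgfbr2cko DP, a log2 fold change of -1.95 (standard error 0.39, limma adjusted p of 0.0314). *Egr2*, with 3 to 24 reads per library, had a log2 fold change of -1.70 (standard error 0.45, limma p of 0.00235, adjusted p of 0.121). *Egr1* was just outside the thresholds, with a log2 fold change of -0.59 (standard error 0.27, limma p of 0.0504), and *Fos* had -0.22 (p of 0.438). The median of the 8 was -0.15.

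**Figure D5:**
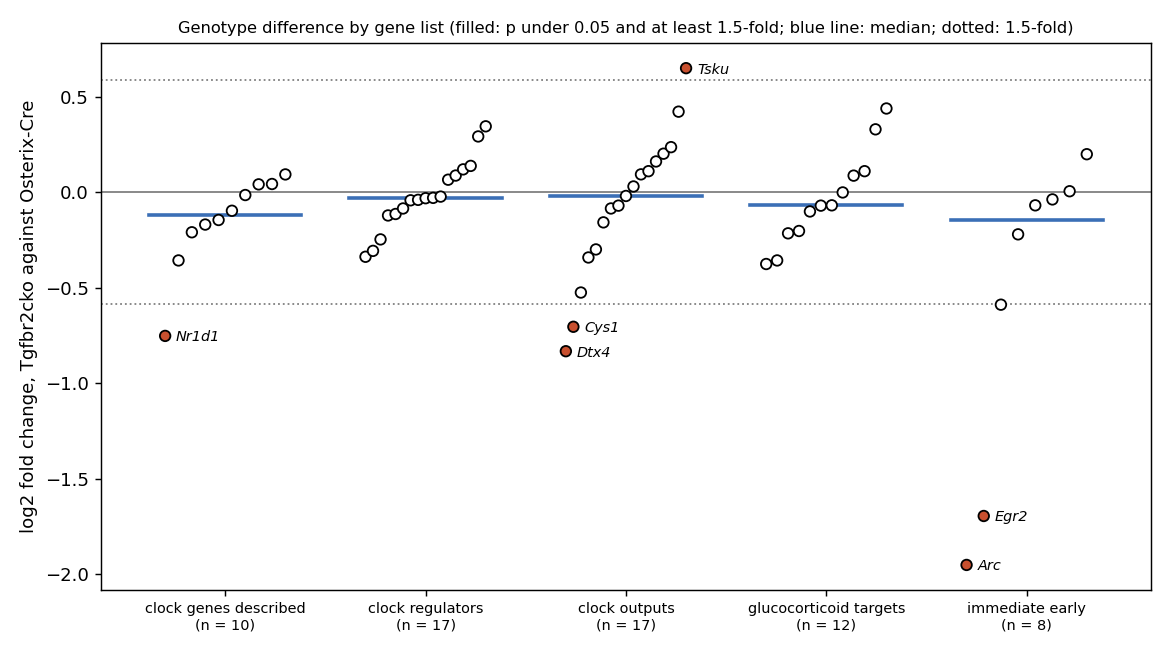
Log2 fold change of Tgfbr2cko against Osterix-Cre (vertical axis) for each gene of the 10 clock genes and of the 4 other lists, with the list's median as a blue line, 1.5-fold as dotted lines and altered genes filled. The clock regulators hold 0 altered genes and the clock genes 1, *Nr1d1*, at -0.75.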

How the data were processed

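RNA from dental pulp was sequenced in 8 libraries, 4 of each genotype. The authors amplified 1 ng of RNA, and according to their notes used fastp 0.21.0, HISAT2 2.1.0, featureCounts (Subread 2.0.1) and the build GRCm38.p5; strandedness is not given in the sources used here. The deposited values are log2 values (log2 CPM) that the authors made with voom from gene counts, with 0.5 added to each count. Here, all 97184 values turned back into whole reads (within 3.61e-08). Reads carry no molecular identifiers, so depth describes counting error only.

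Groups were taken from the genotype label. Genotypes were compared over all 12148 genes with limma 3.58.1 in R 4.3.3 (moderated test with an intensity trend, two-sided, Benjamini-Hochberg adjustment). Exact permutation tests and plots used Python 3.11.15 and matplotlib 3.10.9. Positions and exon lengths are from GENCODE M21 (GRCm38) and promoter sequences from RefSeq (GRCm38.p6).

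The clock genes and gene lists were chosen with earlier results of these data known. All 10 clock genes are named, and of each other list the altered genes or the 3 with the smallest p; *Cry2*, *Fos*, *Egr1*, *Thra* and *Sphk2* were named after their values were seen. *Arntl2*, *Rorb*, *Bhlhe41*, *Fbxl21*, *Upp2*, *Ppara*, *Zbtb16*, *Fosb* and *Atf3* were not analysed here. Alternatives were no intensity trend, library weights, voom weights, quantile normalization, median centring, library totals without enamel genes, a mean log2 value of at least 3, an offset of 2 reads, averaging libraries with the same title number, and leaving out each library.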

Additional observations from a re-analysis of the deposited data

Results flagged for a closer look

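In each genotype, the 4 libraries of 60 genes (the clock genes, the other lists and the overlapping neighbours) were searched for a value far from the other 3, which gave 120 groups. Of these, 5 held such a value, where chance alone gives about 1 in 20, and none was a clock gene of the 10. *Prkaa1*, the AMP-activated kinase subunit that marks CRY proteins for decay, was at 6.07 in Tgfbr2cko library 53 and at 5.57 to 5.60 in the other mutants. *Klf9*, a glucocorticoid target, was at 3.96 in the same library and at 3.13 to 3.27 in the other mutants. *Mt1*, a metallothionein, was at 5.97 in Tgfbr2cko library 56, with the other mutants at 5.39 to 5.48. *Junb* was at 5.81 in Osterix-Cre library 49 and at 4.90 to 5.0 in the other controls. *Egr1* was at 5.32 in Osterix-Cre library 50, below the other controls at 6.04 to 6.19. All values are log2 CPM.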

How the results depend on the processing

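With 17 alternatives for each clock gene, *Per1*, *Dbp*, *Tef* and *Nr1d1* kept a lower mean in the mutants in all 17. The log2 fold change of *Nr1d1* ran from -0.998 to -0.47, with an unadjusted limma p under 0.05 in 14 of 17, and its 3 misses each left out 1 library. *Per1* had a p of 0.0331 at -0.52 when control library 52 was left out. The other 6 genes changed sign in some, from values between -0.17 (*Per3*) and 0.09 (*Per2*). *Arntl* was at -0.033 with averaged title numbers, *Cry1* at 0.065 with library weights and at 0.062 with totals without enamel genes, and *Nr1d2* at 0.049 with library weights. Leaving out 1 library gave -0.068 to 0.30 for *Per2*, -0.40 to 0.011 for *Per3*, -0.087 to 0.21 for *Arntl*, -0.012 to 0.11 for *Clock*, -0.095 to 0.061 for *Cry1* and -0.20 to 0.068 for *Nr1d2*. The median log2 fold change of the 10 genes was -0.0039 with library weights, -0.045 with totals without enamel genes (which moved the median of all genes to 0.07), and -0.20 to -0.031 with 1 library left out. With 1 library left out, the median of all genes ran from -0.049 to 0.070. The number of altered clock genes was 0 at 2-fold, 0 after adjustment, and 0 to 1 with 1 library left out. Altered outputs numbered 0 at 2-fold and 0 after adjustment. They numbered 4 without library 53 or without library 55, and 2 with library weights and without library 49 or library 50. Altered immediate early genes numbered 1 after adjustment and 1 when genes averaging under 3 on the log2 scale were dropped. The count of altered immediate early genes was 3 in 6 alternatives, which were voom weights, median centring, averaged title numbers and leaving out library 50, 53 or 55. *Cys1* lost the fold threshold without control library 50 (-0.55), and *Tsku* without control library 49 (0.55) and just with library weights (0.58). With median centring, *Arntl* passed the threshold before adjustment with *Dbp* and with *Per3*, and the r of *Per3* and *Clock* was 0.557, and that of *Per2* and *Clock* 0.471. The cause of these shifts was not tested. No paired analysis was run. The genotypes share only 1 title number, so a block would compare only library 51 with libraries 54 and 55. *Per1*, *Per2*, *Nr1d1* and *Arntl* rest on 61 to 261 reads per library.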
